A study of Mus musculus with 12 samples.

Results

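The genes described here are 10 that encode Mef2 and Tead transcription factors and partners of the Teads: Mef2a, Mef2c, Mef2d, Tead1, Tead2, Tead3, Tead4, Yap1, Vgll2 and Vgll3. They were chosen by symbol, and each of the 10 was found in every sample among the 23923 genes analysed. RNA was sequenced from the tibialis anterior, a fast-twitch muscle of the lower leg, of 12 mice aged 6 weeks on a mixed C57BL6/J;129S1/SvImJ background. The 6 controls were Myf6 cre/+; Smyd1 flox/+, with 1 floxed and 1 wild-type Smyd1 allele. The 6 Smyd1 CKOs (conditional knockouts) were Myf6 cre/+; Smyd1 flox/-, with 1 floxed and 1 null allele. Both groups carried the Cre allele, so neither was wild type, and the study's breeding also placed a Rosa26 YFP reporter allele in both. Cre was made from the Myf6 locus, which is active in skeletal muscle cells and their fibres from around birth, so that cells of other types kept the floxed allele. Smyd1 encodes a muscle-specific lysine methyltransferase. Levels are FPKM, the number of fragments of a gene scaled to the length of its transcript and to the depth of the library, and can be compared between genes because they are per length.

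Mef2 proteins are MADS-box factors that bind AT-rich sites in muscle genes together with the MyoD family, and class IIa histone deacetylases hold them inactive until calcium-dependent kinases remove these from the nucleus. Tead proteins bind the MCAT element, which was first described in muscle promoters, and have little activity of their own. They need a partner on DNA: Yap1 or its paralog Taz (gene Wwtr1), which the Hippo kinases keep out of the nucleus, or a Vgll protein, which occupies part of the same surface on the Tead. In skeletal muscle, Tead1 is the Tead long linked to contractile genes, Tead4 is known as a target of MyoD and myogenin in differentiating myoblasts, and Vgll2 and Vgll3 are partners found in muscle cells.

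The paralogs resemble each other most where they bind DNA or partners, and a paralog share is only as good as the reads that tell them apart. The first 90 coding bases of the 3 Mef2 genes, which encode the start of the MADS box, are shown because this domain is shared by the family. Mef2a differed from Mef2c at 16 of the 90 bases and Mef2d at 19. Sequences are from GENCODE M21 transcripts on GRCm38, read 5′ to 3′, and capitals mark bases that differ from Mef2c.
Mef2c: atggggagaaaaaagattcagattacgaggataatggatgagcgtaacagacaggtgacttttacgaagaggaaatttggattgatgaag
Mef2a: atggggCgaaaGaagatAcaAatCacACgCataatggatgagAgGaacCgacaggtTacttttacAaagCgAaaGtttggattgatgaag
Mef2d: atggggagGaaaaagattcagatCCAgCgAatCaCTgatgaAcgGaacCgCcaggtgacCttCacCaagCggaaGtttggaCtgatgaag

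For the Teads, the 90-base stretch of Tead1 most alike in its paralogs (coding bases 1099 to 1188) is shown with its best match in each. It encodes part of the domain that binds Yap1 and Vgll proteins. Capitals mark bases that differ from Tead1. Tead4 differed at 14 bases, Tead3 at 16 and Tead2 at 23.
Tead1: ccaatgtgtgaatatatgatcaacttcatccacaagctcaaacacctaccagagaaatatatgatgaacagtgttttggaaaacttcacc
Tead2: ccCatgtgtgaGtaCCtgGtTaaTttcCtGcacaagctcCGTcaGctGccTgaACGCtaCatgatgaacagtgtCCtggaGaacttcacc
Tead3: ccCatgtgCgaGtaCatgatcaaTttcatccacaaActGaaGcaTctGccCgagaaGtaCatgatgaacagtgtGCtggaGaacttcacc
Tead4: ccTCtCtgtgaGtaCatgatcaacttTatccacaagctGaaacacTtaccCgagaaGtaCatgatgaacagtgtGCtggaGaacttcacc

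Windows of 50 bases were compared between the annotated transcripts, since the authors discarded reads that mapped to several places. Tead3 and Tead4 shared 10 windows with each other, 0.417% of those of Tead3 and 0.33% of those of Tead4. No window of Mef2c, Mef2d, Tead2, Vgll2 or Vgll3 was found in another gene. The largest overlap was 4.61% of Mef2a windows, with its neighbour Lysmd4, followed by 1.65% of Yap1 windows, with the predicted gene Gm20416. How far the shared windows move the values of Mef2a and Yap1 was not tested.

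RefSeq promoter sequences (GRCm38.p6, 250 bases before to 50 bases after the transcription start) were matched by symbol for 8 of the 10 genes, all but Tead1 and Tead4, with 12 promoters in all. The MCAT core, CATTCC or on the other strand GGAATG, was found in 5 of the 12, against 14.66% of the 32851 promoters in that table. These were the promoter of Yap1, 1 of 3 of Mef2c, 2 of 3 of Tead3 and that of Vgll3. A Mef2 box, searched on both strands, was found in 1 of the 12, that of Mef2a, against 3.19% of the table. The promoters of Yap1 (chr9:8004547-8004846, minus strand), Mef2c (chr13:83503784-83504083, plus strand) and Mef2a (chr7:67372809-67373108, minus strand) are shown because they join the families, an MCAT core in Yap1 and Mef2c and a Mef2 box in Mef2a. Capitals mark the matches, which are matches of letters and not measured binding.
Yap1 promoter: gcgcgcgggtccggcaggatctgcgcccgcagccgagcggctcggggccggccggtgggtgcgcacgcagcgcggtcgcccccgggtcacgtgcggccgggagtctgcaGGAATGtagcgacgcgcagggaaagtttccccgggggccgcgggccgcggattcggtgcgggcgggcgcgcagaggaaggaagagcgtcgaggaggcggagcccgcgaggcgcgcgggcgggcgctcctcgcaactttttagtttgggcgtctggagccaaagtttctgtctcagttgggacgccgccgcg
Mef2c promoter: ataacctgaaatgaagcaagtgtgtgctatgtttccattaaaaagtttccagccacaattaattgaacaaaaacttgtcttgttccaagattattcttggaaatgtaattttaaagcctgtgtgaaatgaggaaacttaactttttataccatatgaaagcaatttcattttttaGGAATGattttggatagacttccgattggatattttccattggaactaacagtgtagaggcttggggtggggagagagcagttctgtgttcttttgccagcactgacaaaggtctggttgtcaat
Mef2a promoter: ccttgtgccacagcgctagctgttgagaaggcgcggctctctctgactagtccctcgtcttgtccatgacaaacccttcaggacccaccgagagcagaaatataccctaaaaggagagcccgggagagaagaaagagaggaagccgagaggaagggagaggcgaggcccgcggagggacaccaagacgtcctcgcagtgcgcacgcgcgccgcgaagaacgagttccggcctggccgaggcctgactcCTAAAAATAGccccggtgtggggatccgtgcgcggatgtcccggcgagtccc

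Smyd1 itself was 32.9 to 47.1 FPKM in controls (median 34.9) and 27.8 to 39.9 FPKM in CKOs (median 33.5), and the groups overlapped (log2 fold change -0.13, SE 0.12, adjusted p = 0.545, and -0.315 with an adjusted p of 0.0801 after scaling, limma). The FPKM ranges of the whole gene thus did not separate the genotypes and do not check the labels. Sequencing depth relative to control 1 ran from 0.984 to 1.77, with medians of 1.19 in controls and 1.24 in CKOs, and the number of reads is unknown. Correlations across genes between samples of a group were 0.9435 to 0.972, and were lowest on average for control 1 and CKO 5. Fast fibre markers were the most abundant of the 10 cell type lists in each library, with a summed level of 27250 to 45550 FPKM. Xist was at most 0.11 FPKM and the Y-linked Ddx3y at least 15.8 FPKM in all 12 libraries. The study used male tissue alone after comparing the sexes, since the phenotype of males was strong and consistent. The median log2 fold change of the 12695 genes tested was 0.18, and 77.9% of them were above 0. Scaling each sample by its median ratio to the geometric mean (median-ratio scaling) brought that median to 0.01, a shift of 0.17, so the value of each of the 10 genes after scaling is given below beside that from the FPKM as deposited.

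Yap1 and Tead4 rose in the Smyd1 CKO. At an adjusted p below 0.05 (limma on log2(FPKM + 0.1), Benjamini-Hochberg over the 12695 genes tested), 2 of the 10 genes were higher and 0 lower. Of the genes tested, 2.02% were called higher and 0.268% lower. At an unadjusted p below 0.05, 5 of the 10 were higher (Yap1, Tead4, Mef2c, Mef2a and Vgll3) and 0 lower, against 18.1% and 1.76% of genes tested. After scaling, Yap1 alone passed the adjusted threshold, and Yap1, Tead4 and Mef2c were higher and Tead1 lower at the unadjusted one. Of the genes tested, 0.764% were then called higher and 0.709% lower by the adjusted p, and 6.66% and 7.41% by the unadjusted p. The median log2 fold change of the 10 was 0.30, and 0.14 after scaling. Each of the 10 passed the filter on low values, and their choice was made with earlier results known, so these counts are a description.

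**Figure D1:**
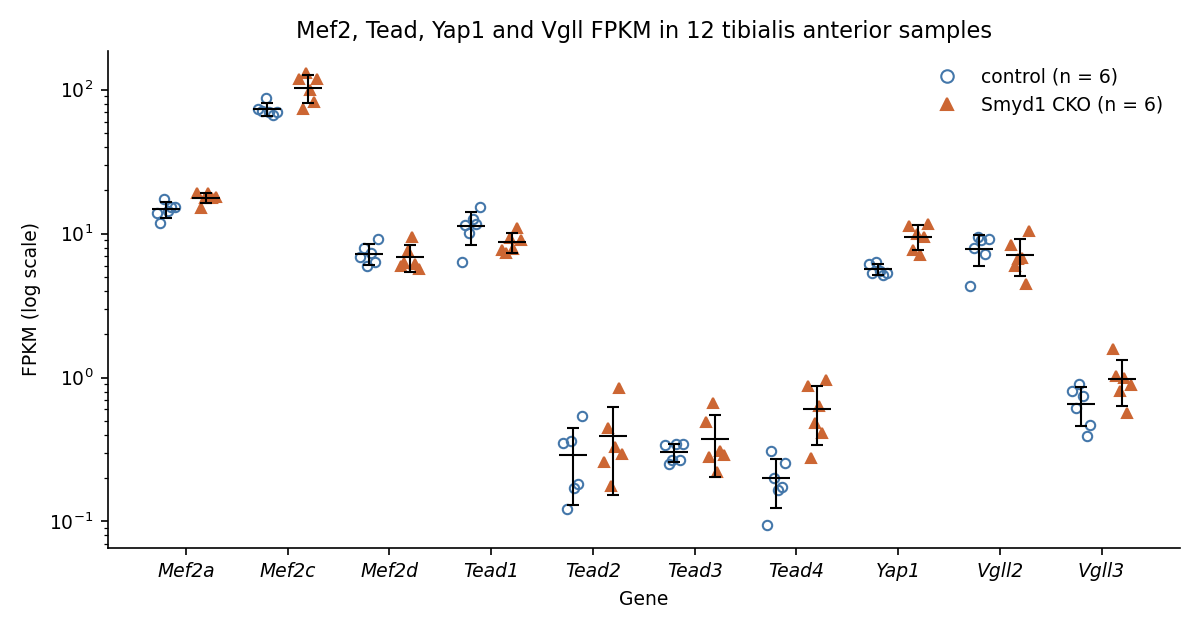
FPKM of the 10 genes (log axis) in each mouse, with 6 controls as open circles and 6 Smyd1 CKOs as filled triangles. Black bars are the mean and SD. The 6 CKO values of Yap1 lie above its 6 control values, and in the other genes the groups overlap.

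The levels spanned a wide range. In controls the order of mean FPKM was Mef2c (73.2), Mef2a (14.7), Tead1 (11.2), Vgll2 (7.87), Mef2d (7.25), Yap1 (5.66), Vgll3 (0.655), Tead3 (0.303), Tead2 (0.288) and Tead4 (0.199). The ranges of neighbours were apart at 3 steps, from Mef2c to Mef2a, from Yap1 to Vgll3 and from Vgll3 to Tead3, and overlapped at the others. Mef2a was above Tead1, and Tead1 above Vgll2, in 6 of 6 controls although their ranges overlapped, whereas Tead3 and Tead2 exchanged places from mouse to mouse. In CKOs, Yap1 (9.53) came at rank 3, above Tead1 in 4 of 6 mice, and Tead4 (0.607) at rank 8. Its range overlapped those of Tead2 and Tead3, the 2 Teads with a higher mean in controls, where Tead4 was above both in control 2.

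Yap1, the coactivator at the end of the Hippo pathway (chromosome 9, 7931999 to 8004596, minus strand, GRCm38), was 6.19, 5.35, 6.37, 5.53, 5.17 and 5.31 FPKM in controls 1 to 6. In CKOs 1 to 6 it was 11.3, 7.67, 9.95, 7.13, 9.40 and 11.7 FPKM. The lowest CKO, 7.13 FPKM, was above the highest control, 6.37 FPKM, and Yap1 was the only one of the 10 whose groups did not overlap in FPKM. Of the genes tested, 2.23% had 6 CKO values above 6 control values. The mean was 5.66 ± 0.502 FPKM in controls and 9.53 ± 1.86 FPKM in CKOs (SD, n = 6), a ratio of 1.69. The log2 fold change was 0.72 (SE 0.13, adjusted p = 0.00931, limma), and 0.54 (SE 0.11, adjusted p = 0.0205) after scaling. Yap1 kept its call in limma without any 1 of the 12 mice, with log2 fold changes of 0.66 to 0.80 and adjusted p of 0.00541 to 0.0305.

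Wwtr1, which encodes Taz, the other coactivator of the pathway, was 5.90 ± 1.28 FPKM in controls and 5.79 ± 0.595 FPKM in CKOs (SD, n = 6). Its log2 fold change was -0.01 (95% confidence interval -0.29 to 0.27, adjusted p = 0.978, limma), and -0.19 (-0.41 to 0.02) after scaling. Yap1 made up 43.8 to 52.2% of the summed FPKM of Yap1 and Wwtr1 in controls and 56.2 to 64.8% in CKOs. This share, 49.3% ± 3.12 and 61.9% ± 3.49 (SD, n = 6), was computed after both values had been seen and was not tested.

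The Teads were led by Tead1 in both groups, and Tead4 took a larger share in the CKO. Tead4 (chromosome 6, 128224288 to 128300823, minus strand, GRCm38) was 0.0942, 0.308, 0.199, 0.166, 0.173 and 0.254 FPKM in controls 1 to 6. In CKOs 1 to 6 it was 0.873, 0.278, 0.486, 0.631, 0.415 and 0.958 FPKM. Of the CKOs, 5 were above every control, and CKO 2, the lowest, fell below control 2, the highest. The mean was 0.199 ± 0.0742 FPKM in controls and 0.607 ± 0.266 FPKM in CKOs (SD, n = 6), a ratio of 3.05, and the log2 fold change was 1.19 (SE 0.27, adjusted p = 0.0332, limma). These levels are below 1 FPKM, where few fragments stand behind a value. After scaling the log2 fold change was 1.03 (adjusted p = 0.0778, limma), and the adjusted p with a replicate block was 0.0606. In limma the adjusted p of Tead4 was also above 0.05 without control 3 (0.0567), control 4 (0.0757), control 5 (0.0786), CKO 1 (0.0926), CKO 3 (0.0615), CKO 4 (0.0593) or CKO 6 (0.0774).

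Tead1 (chromosome 7, 112679318 to 112906807, plus strand, GRCm38) was 6.35, 11.5, 10.04, 12.6, 11.7 and 15.3 FPKM in controls and 7.66, 7.31, 9.36, 7.83, 10.99 and 8.98 FPKM in CKOs. Control 1 was below every CKO and the next lowest control, 10.04 FPKM, was above 5 of them. The log2 fold change was -0.33 (95% confidence interval -0.70 to 0.04, adjusted p = 0.297, limma), and -0.52 after scaling (adjusted p = 0.266). Without control 1 it was -0.49, with an adjusted p of 0.0299 in limma. Control 1 had the highest mean level of fibroblast, macrophage and tenocyte markers of the 12 libraries (mean log2(FPKM + 0.1) of 5.004, 1.68 and 1.81, against at most 4.40, 1.17 and 0.88 in the others). Whether these markers bear on its Tead1 level was not tested.

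Tead2 was 0.123 to 0.541 FPKM in controls (median 0.265) and 0.177 to 0.842 FPKM in CKOs (median 0.312). Its log2 fold change was 0.32 (95% confidence interval -0.35 to 0.998, adjusted p = 0.583, limma), and 0.19 after scaling. Tead3 was 0.252 to 0.348 FPKM in controls (median 0.305) and 0.220 to 0.670 FPKM in CKOs (median 0.298). Its log2 fold change was 0.18 (95% confidence interval -0.30 to 0.65, adjusted p = 0.677, limma), with 0.03 after scaling and a turned sign under quantile normalization (-0.03). The 2 highest Tead3 values were those of CKO 1 and CKO 3, and without CKO 3 the log2 fold change was 0.02.

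A share of one paralog in the summed FPKM of its family cannot move with the scaling of a whole sample. The share of Tead4 among the 4 Teads was 1.32, 2.53, 1.83, 1.26, 1.40 and 1.55% in controls 1 to 6. In CKOs 1 to 6 it was 9.40, 3.34, 4.55, 6.998, 3.304 and 9.10%. The groups did not overlap, with 3.304% as the lowest CKO and 2.53% as the highest control. The mean share was 1.65% ± 0.477 in controls and 6.12% ± 2.78 in CKOs (SD, n = 6), a difference of 4.47 points (two-sided exact permutation test, p = 0.00217, the smallest that 6 mice against 6 allow).

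The share of Tead1 was 89.0 to 94.96% in controls (median 93.7%) and 82.5 to 88.0% in CKOs (median 87.2%), again without overlap. The mean was 93.1% ± 2.25 in controls and 86.3% ± 2.07 in CKOs (SD, n = 6), a difference of -6.8 points (two-sided exact permutation test, p = 0.00217). The shares of a family sum to 100%, so a lower Tead1 share and a higher Tead4 share are not independent results. The share of Tead2 was 2.55% ± 1.54 in controls and 3.83% ± 1.87 in CKOs (SD, n = 6, exact permutation p = 0.221). That of Tead3 was 2.70% ± 1.03 and 3.76% ± 1.63 (SD, n = 6, exact permutation p = 0.195), and both overlapped between groups. The summed FPKM of the 4 Teads was 12.03 ± 3.04 in controls and 10.1 ± 1.52 in CKOs (SD, n = 6). In all, 8 shares were compared, and the p-values are not adjusted over them.

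**Figure D2:**
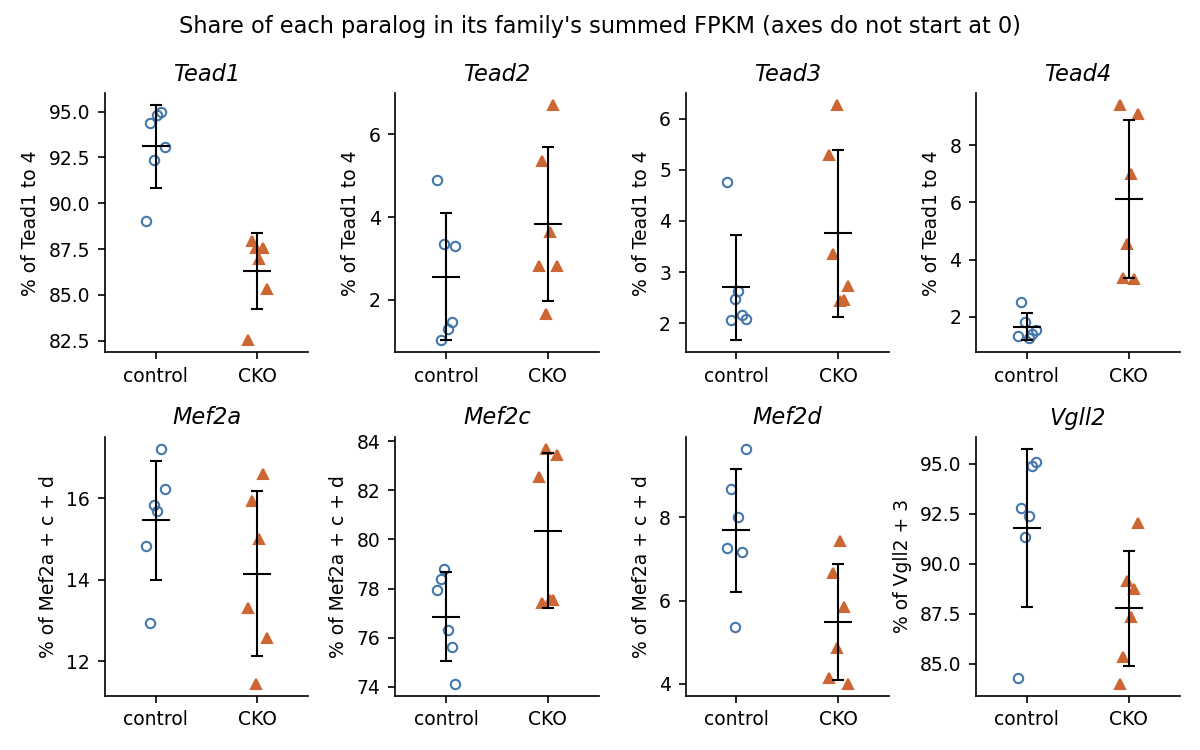
Share of each paralog in the summed FPKM of its family (percent, each panel with its own axis) in 6 controls (open circles) and 6 Smyd1 CKOs (filled triangles), with mean and SD in black. Tead1 and Tead4 are the panels whose groups do not overlap: the lowest CKO share of Tead4 is 3.304% and the highest control share 2.53%.

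Mef2c was the most abundant of the 10 genes. Mef2c (chromosome 13, 83504034 to 83667080, plus strand, GRCm38), the Mef2 best known in developing muscle, was 73.5, 71.4, 87.1, 70.1, 66.8 and 70.2 FPKM in controls 1 to 6. In CKOs 1 to 6 it was 118, 73.1, 130, 99.0, 82.3 and 119 FPKM. CKOs 1, 3, 4 and 6 were above every control, and CKOs 2 and 5 were within the control range. The mean was 73.2 ± 7.15 FPKM in controls and 104 ± 22.6 FPKM in CKOs (SD, n = 6). The log2 fold change was 0.48 (SE 0.14, adjusted p = 0.083, limma), past the unadjusted threshold only, and 0.29 after scaling (adjusted p = 0.317). Without CKO 2 it was 0.57 with an adjusted p of 0.0276 in limma.

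Mef2a (chromosome 7, 67231163 to 67372858, minus strand, GRCm38), the Mef2 prominent in adult muscle, was 11.8 to 17.5 FPKM in controls (median 14.8) and 15.04 to 19.2 FPKM in CKOs (median 17.8). Of the CKOs, 5 were above the highest control. The log2 fold change was 0.27 (SE 0.10, adjusted p = 0.16, limma) and 0.09 after scaling. Mef2d, also made in adult muscle (chromosome 3, 88142372 to 88172086, plus strand, GRCm38), was 5.93 to 9.14 FPKM in controls (median 7.10) and 5.71 to 9.51 FPKM in CKOs (median 6.25). Its log2 fold change was -0.09 (95% confidence interval -0.39 to 0.21, adjusted p = 0.75, limma), and -0.27 after scaling. The fourth family member, Mef2b, was at most 0.183 FPKM and listed at 0 in 3 controls and 4 CKOs, and was not tested.

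The summed FPKM of Mef2a, Mef2c and Mef2d was 88.4 to 111 in controls (median 93.1) and 94.4 to 155 in CKOs (median 135). Mef2c made up 74.1 to 78.8% of it in controls and 77.4 to 83.7% in CKOs. In single mice, CKOs 1, 3 and 6 were at 82.5 to 83.7%, and CKOs 2, 4 and 5 at 77.4 to 77.5%. The mean was 3.51 points higher in CKOs, a difference that did not pass the test (two-sided exact permutation test, p = 0.0584). That p was 0.0411 without CKO 2, CKO 4 or CKO 5. The share of Mef2d was 7.69% ± 1.47 in controls and 5.49% ± 1.40 in CKOs (SD, n = 6), with overlapping groups (difference -2.20 points, two-sided exact permutation test, p = 0.0281). Without control 2, control 6, CKO 1, CKO 3 or CKO 6 the exact permutation p was 0.0519, 0.0563, 0.0584, 0.0563 and 0.0584. The share of Mef2a was 15.5% ± 1.46 and 14.1% ± 2.03 (SD, n = 6, exact permutation p = 0.229).

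Vgll2, a Tead partner of skeletal muscle (chromosome 10, 52022502 to 52028471, plus strand, GRCm38), was 4.32 to 9.52 FPKM in controls (median 8.48) and 4.45 to 10.4 FPKM in CKOs (median 6.73). The groups overlapped over nearly the whole range (log2 fold change -0.15, 95% confidence interval -0.59 to 0.29, adjusted p = 0.71, limma). The log2 fold change was -0.34 after scaling, -0.31 without control 1 and -0.03 without CKO 5. Vgll3 (chromosome 16, 65815257 to 65866368, plus strand, GRCm38) was 0.805, 0.619, 0.903, 0.743, 0.393 and 0.469 FPKM in controls 1 to 6. In CKOs 1 to 6 it was 1.59, 1.03, 0.812, 0.987, 0.565 and 0.894 FPKM. CKOs 1, 2 and 4 were above the highest control, and the log2 fold change was 0.50 (SE 0.23, adjusted p = 0.239, limma), past the unadjusted threshold only, and 0.34 after scaling.

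Vgll3 was the only one of the 10 whose FPKM, multiplied by the relative depth, were whole multiples of a common step (0.0278 FPKM at the depth of control 1, tolerance 0.01 of a step). It lay 29, 25, 41, 29, 18 and 26 steps from 0 in controls and 101, 40, 38, 55, 20 and 38 steps in CKOs. If a step is 1 fragment, 18 or more fragments stood behind each value. The library with the most steps, CKO 1, was also the deepest. The share of Vgll2 in the sum of Vgll2 and Vgll3 was 91.8% ± 3.96 in controls and 87.8% ± 2.89 in CKOs (SD, n = 6, two-sided exact permutation test, p = 0.0779). Without control 1 the exact permutation p was 0.00649, with a difference of -5.54 points in place of -4.04, and without CKO 6 it was 0.0411. Of the relatives, Vgll4 had a log2 fold change of -0.04 (adjusted p = 0.91, limma), and -0.22 after scaling. Vgll1 was listed at 0 in the 12 libraries and was not tested.

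**Figure D3:**
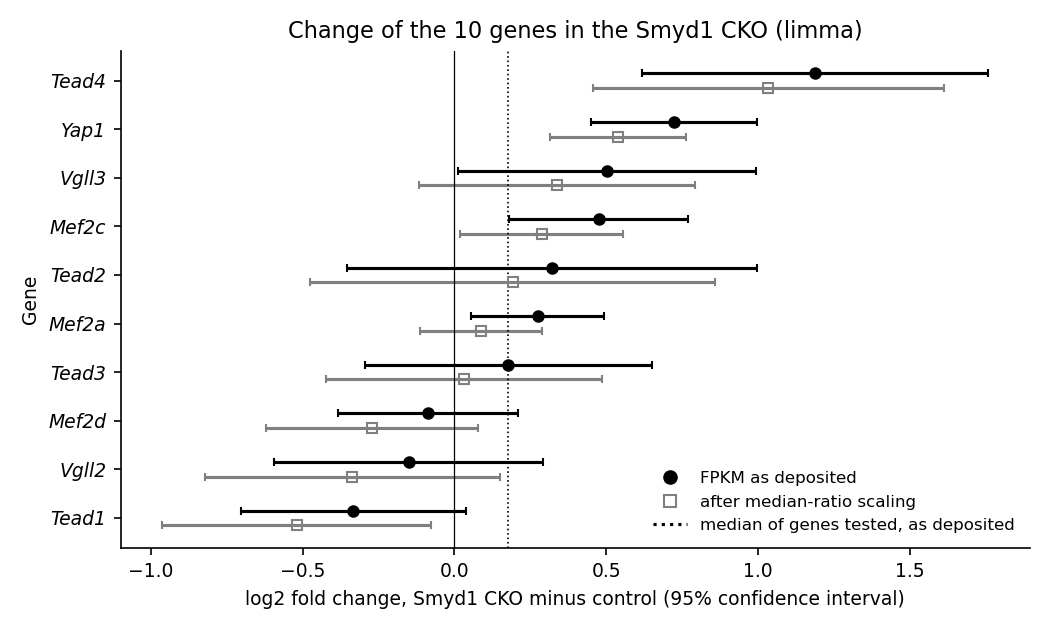
Log2 fold change of the 10 genes, CKO minus control, with 95% confidence intervals from limma, for the FPKM as deposited (filled circles) and after median-ratio scaling (open squares). The dotted line is the median of the genes tested, 0.18. Yap1 and Tead4 lie farthest to the right in both, and the interval of Tead1 is below 0 after scaling but not before.

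The mean level of slow fibre markers was highest in CKOs 1, 3 and 6, as were Yap1 and Mef2c. Of 9 slow fibre marker genes, 7 had an unadjusted p below 0.05 with higher CKO values, against 18.1% of genes tested, and 0 passed the adjusted threshold (limma). After scaling, 6 were higher and 1 lower, against 6.66% and 7.41% of genes tested. The lower one, Myl3, averaged 22.0 FPKM in controls and 15.9 FPKM in CKOs (log2 fold change -0.52, and -0.70 after scaling). The mean log2(FPKM + 0.1) of the list was 0.85 to 2.41 in controls. It was 4.10, 3.39 and 5.07 in CKOs 1, 3 and 6 and 1.74, 2.18 and 1.46 in CKOs 2, 4 and 5. Their summed level was 33.5 to 66.6 FPKM in controls and 48.0 to 354 FPKM in CKOs. CKOs 1, 3 and 6 also held the 3 highest values of Yap1, of Mef2c and of the Mef2c share, and 2 of the 3 highest of Tead4. Among controls, Yap1 was highest, 6.37 FPKM, in control 3, which had the lowest marker level, 0.85. CKO 5 had the lowest marker level of the CKOs, 1.46, with Yap1 at 9.40 FPKM. In bulk tissue, more cells of a type and more RNA per cell cannot be told apart, and whether the fibre type markers account for the levels of these genes was not tested.

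CKOs 1, 3 and 6 were left out in a choice made after the values were seen. These 3 mice held the highest values of Yap1 and of Mef2c, so lower fold changes of both follow from the choice. Fewer mice also make a call less likely. Of the 10 genes, 0 then passed the adjusted threshold, and 2 were higher and 0 lower at the unadjusted one (limma). Yap1 was then 0.50 on the log2 scale (adjusted p = 0.306) and Tead4 0.84 (adjusted p = 0.499), with 3 CKOs against 6 controls. Yap1 was 7.13 to 9.40 FPKM in CKOs 2, 4 and 5, above the 6 controls, as it was in all 6 CKOs. The log2 fold change of Mef2c was 0.21 (adjusted p = 0.682), that of Tead3 -0.13 and that of Mef2d 0.00. In the remaining CKOs the Tead4 share was 2.90 points higher and the Tead1 share 5.63 points lower. For both the p was 0.0119 (two-sided exact permutation test), the smallest that 3 mice against 6 allow. The groups were already apart in both shares with all mice, so leaving mice out could not make them overlap. Without the 3 CKOs the Mef2d share differed by -1.04 points (exact permutation p = 0.309).

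Of 7 satellite cell markers, 4 were higher at an unadjusted p below 0.05 and 0 at an adjusted one (limma), and 2 after scaling, against 18.1% and 6.66% of genes tested. The mean log2(FPKM + 0.1) of the list was -0.40 to 0.03 in controls and 0.17 to 0.75 in CKOs, ranges that were apart by less than the shift of 0.17 that scaling makes. Their summed level was 8.87 to 15.6 FPKM in controls and 12.2 to 20.6 FPKM in CKOs. Pax7, which defines these stem cells, was 0.228 ± 0.114 FPKM in controls and 0.401 ± 0.133 FPKM in CKOs (SD, n = 6), and none of the list was at 0 throughout. Tead4 is also made by muscle precursors, and whether their number accounts for its level was not tested. The summed endothelial markers were 43.5 to 57.1 FPKM in controls and 45.9 to 63.7 FPKM in CKOs, with 0 of 8 past the unadjusted threshold in limma. At that threshold, 2 of 7 fibroblast, 2 of 6 Schwann cell and 2 of 3 adipocyte markers were higher, against 18.1% of genes tested. So were 2 of 6 smooth muscle or pericyte markers, Cspg4 and Des, while Myh11 and Acta2 did not pass. Des averaged 225 FPKM in controls, against 4.58 FPKM for Myh11, and the cells it came from were not tested. The tenocyte list had 1 of 7 lower, and 0 of 6 macrophage markers passed. After scaling, 1 fibroblast, 0 Schwann cell, 2 adipocyte and 1 smooth muscle or pericyte marker were higher, against 6.66% of genes tested. In the tenocyte list 2 were then lower, against 7.41% of genes tested. Of 10 fast fibre markers, 2 were higher and 1 lower, and 2 and 6 after scaling. The part of these cell types in the levels of the 10 genes was not tested.

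**Figure D4:**
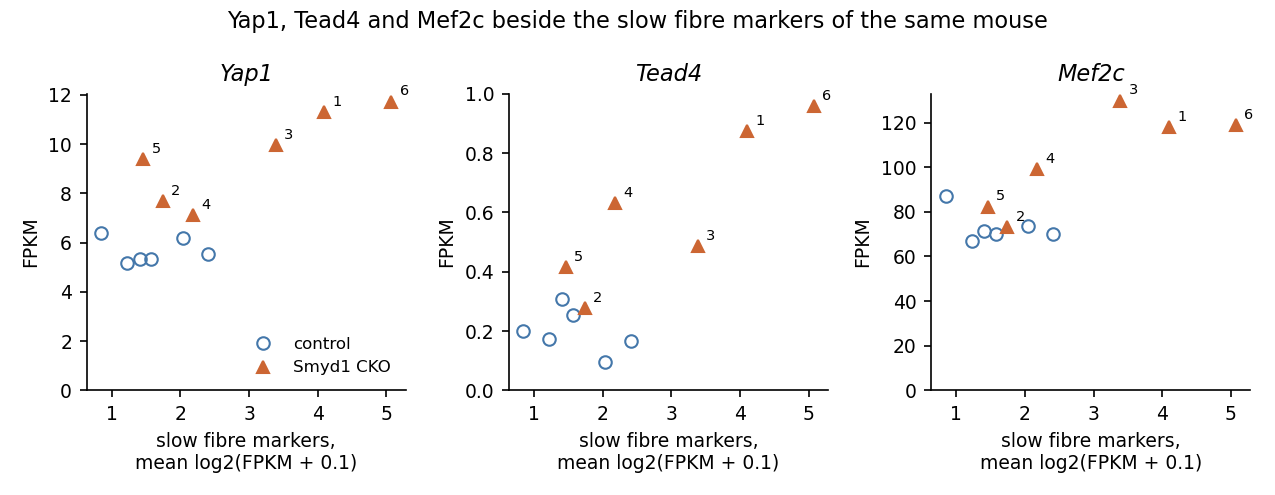
FPKM of Yap1, Tead4 and Mef2c (vertical axes from 0) against the mean log2(FPKM + 0.1) of 9 slow fibre markers in the same mouse, for 6 controls (open circles) and 6 Smyd1 CKOs (filled triangles, numbered). CKOs 1, 3 and 6 stand to the right at 3.39 to 5.07. Whether the markers account for the levels of the 3 genes was not tested.

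Genes that act on Mef2 or Tead, or are known as their targets, were taken as lists, with membership from general knowledge. The counts that follow stand beside the shares of genes tested given above, 18.1% higher and 1.76% lower by the unadjusted p, and 6.66% and 7.41% after scaling. Of 17 Hippo pathway genes tested, 6 were higher and 0 lower at an unadjusted p below 0.05, and 1 higher at an adjusted one (2.02% of genes tested). Their median log2 fold change was 0.22, near the 0.18 of all genes tested, and 1 was higher and 0 lower after scaling. Amot, an angiomotin that holds Yap1 at junctions and on actin, was 8.15 to 14.8 FPKM in controls and 15.5 to 30.7 FPKM in CKOs, without overlap (log2 fold change 0.99, SE 0.20, adjusted p = 0.0176, limma). Mob1b, a cofactor of the Lats kinases, also did not overlap between groups, at 4.17 to 5.23 and 5.30 to 7.62 FPKM (log2 fold change 0.35, adjusted p = 0.106, and 0.16 after scaling). Sav1, the scaffold of the Hippo kinases, had a log2 fold change of 0.43 (adjusted p = 0.134), and 0.24 after scaling.

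Of 14 known targets of Yap and Tead, 3 were higher and 0 lower at an unadjusted p below 0.05 and 0 at an adjusted one (limma), with a median log2 fold change of 0.36. That median was 0.19 after scaling, against 0.01 for all genes tested. Ankrd1, a stretch-responsive titin-binding protein, was 3.50 to 10.01 FPKM in controls. In CKOs 1 to 6 it was 39.3, 17.0, 44.5, 11.7, 4.16 and 79.9 FPKM, so that CKOs 1, 3 and 6 were again the highest and CKO 5 was within the control range (log2 fold change 2.02, adjusted p = 0.0639). Crim1 and Ptpn14 had log2 fold changes of 0.46 and 0.37 (adjusted p of 0.109 and 0.194), and of 0.28 and 0.19 after scaling. Ctgf and Cyr61 had log2 fold changes of 0.52 and -0.77 (adjusted p of 0.467 and 0.346, limma), and of 0.34 and -0.95 after scaling. Before scaling, 12 of the 14 were above 0. Ptpn14, Amotl2 and Lats2 stand in both the Hippo and the target list. After scaling, 1 of the 14 was higher and 0 lower.

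Of 9 Tead targets of muscle tested, 3 were higher and 1 lower at an unadjusted p below 0.05 and 0 at an adjusted one (limma), with a median of 0.32. The 3 were Myh7, the slow myosin heavy chain, Myog and Chrnb1, the beta subunit of the acetylcholine receptor. Myh7 was 0.204 to 2.25 FPKM in controls and 0.419 to 37.5 FPKM in CKOs (log2 fold change 2.58, adjusted p = 0.155), and it is also one of the slow fibre markers. Chrnb1 had a log2 fold change of 0.35 (adjusted p = 0.155), and 0.16 after scaling. After scaling, 2 of the 9 were higher and 2 lower.

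Of 17 Mef2 targets tested, 4 were higher and 2 lower at an unadjusted p below 0.05, and 0 higher and 1 lower at an adjusted one (limma), with a median of -0.12. Mstn, myostatin, which limits muscle growth, was 5.82 to 11.3 FPKM in controls and 1.88 to 6.70 FPKM in CKOs, and fell by 1.18 on the log2 scale (SE 0.24, adjusted p = 0.0188). Of the CKOs, 5 were below every control. Myog, the myogenic factor myogenin, had a log2 fold change of 1.36 (adjusted p = 0.0658) and Myoz2, a Z-disc protein of slow fibres, one of 0.90 (adjusted p = 0.0953). After scaling, the unadjusted counts were 3 higher and 6 lower. Smyd1, the targeted gene, stands in this list and is among the 6 lower genes, at -0.315 after scaling.

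Of 16 regulators of Mef2 tested, 4 were higher and 1 lower at an unadjusted p below 0.05, and 1 higher at an adjusted one (limma), with a median of 0.20. Camk2d, a calcium-dependent kinase that acts on class IIa histone deacetylases, was 4.77 to 7.30 FPKM in controls and 6.72 to 14.0 FPKM in CKOs (log2 fold change 0.70, adjusted p = 0.0493). CKO 4 was the lowest, within the control range, and after scaling the adjusted p was 0.108. Of the deacetylases, Hdac9 had a log2 fold change of 0.83 (adjusted p = 0.107) and Hdac5 one of 0.39 (adjusted p = 0.083), which were 0.66 and 0.21 after scaling. Of the 16, 2 were then higher and 2 lower by the unadjusted p, and 0 passed after adjustment. Hdac9 is itself a known Mef2 target and stands in both lists.

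**Figure D5:**
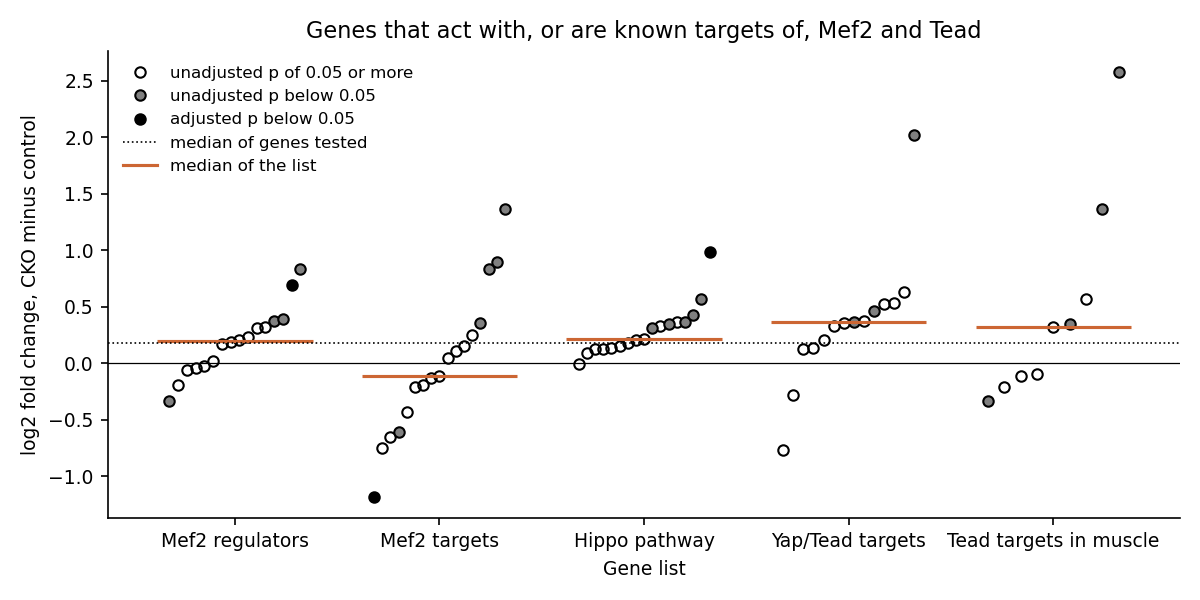
Log2 fold change (CKO minus control) of each gene tested in 5 lists, from the FPKM as deposited. Genes of an unadjusted p below 0.05 are grey and those of an adjusted p below 0.05 black (limma). Orange lines are list medians, from -0.12 for Mef2 targets to 0.36 for Yap and Tead targets, and the dotted line is the median of the genes tested, 0.18.

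The genes whose deviations from their group means followed those of 4 of the transcription factors most closely were sought among 7969 genes, over 12 samples. For Yap1 they were Npr3, Stau2 and Mybpc1 (Pearson r of 0.955, 0.953 and 0.941), and for Mef2c they were Rpap2, Limch1 and Dmd (0.928, 0.928 and 0.919). For Tead4 they included Wdfy3 and Samd4 (0.924 and 0.896), and for Tead1 they were Ppard, Trak1 and Gm15800 (0.944, 0.880 and 0.877). Npr3 had a log2 fold change of -0.14 (adjusted p = 0.833), Stau2 one of 0.74 (adjusted p = 0.0257) and Mybpc1 one of 0.25 (adjusted p = 0.295, limma). Rpap2 had one of 0.18 (adjusted p = 0.516), Limch1 one of 0.60 (adjusted p = 0.0455) and Dmd, dystrophin, one of 0.63 (adjusted p = 0.0188, limma). The samples share their library depth across genes, and the genes are the highest of a long list, so the values are descriptions. Among the 10, the highest r was 0.76, between Tead4 and Vgll2, and the lowest -0.63, between Yap1 and Mef2d and between Tead1 and Vgll3.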

How the data were processed

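Tibialis anterior RNA of 12 mice (6 controls, 6 Smyd1 CKOs, grouped by the genotype label) was depleted of ribosomal RNA and sequenced. The authors trimmed the reads, aligned them with bowtie2 and tophat with at most 2 mismatches, discarded those with several positions, and deposited FPKM from cufflinks. The submitters' processing notes name TopHat2 2.0.10, Cufflinks 2.1.1 and mm9. The gene annotation is not given in the sources used here. The authors' own test (DESeq on counts) was not repeated, since counts were not used here. Each file had 23950 rows, and 27 with a date for a symbol were dropped.

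Groups were compared with limma 3.58.1 (R 4.3.3) on log2(FPKM + 0.1), with an intensity trend and no block, for the 12695 genes of 0.1 FPKM or more in 6 or more samples. The fold changes understate those of genes near 0.1 FPKM. Paralog shares were compared by two-sided exact permutation of the mice (scipy 1.17.1). The code was tested on simulated data. Relative depth was read from steps between FPKM below 0.15. Files carry no positions, so those of genes and transcripts are GRCm38 (GENCODE M21), matched by symbol, not mm9. The study describes CKO mice beside littermates, but no source used here assigns these 12 libraries, which were multiplexed, to litters or batches.

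Text names the 10 genes, Smyd1, genes of each non-marker list past the adjusted threshold or with its 3 smallest p, and the 3 genes most like Yap1, Tead4, Mef2c and Tead1 (mean of 1 FPKM or more). One gene that meets this rule is not reported here. The members and lists were chosen with earlier results of these data known. The fits were repeated without a filter or with one at 1 FPKM, with a pseudocount of 1, after quantile normalization or median-ratio scaling, with a replicate block, sample weights or no trend, and without each mouse. Shares were also taken with 0.1 FPKM added, or as log2 ratios.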

Additional observations from a re-analysis of the deposited data

Results flagged for a closer look

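In 36 groups of 6 mice (FPKM and shares of the 10 genes, each group separately), 4 values lay far from the other 5 by Dixon's criterion, and chance flags about 1 group in 20. Mef2a was 15.04 FPKM in CKO 2, against 17.6 to 19.2 FPKM in the other CKOs, and Mef2c was 87.1 FPKM in control 3, against 66.8 to 73.5 FPKM in the other controls. In control 1 the share of Tead3 among the Teads was 4.76%, against 2.07 to 2.63% in the other controls, and the share of Vgll2 in Vgll2 and Vgll3 was 84.3%, against 91.3 to 95.1%.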

How the results depend on the processing

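Yap1 kept its direction under each alternative run. It kept its adjusted call except when CKOs 1, 3 and 6, the mice with its highest values, were left out together. The log2 fold change was then 0.50, and 0.35 with scaling. The number of the 10 genes higher at the adjusted threshold, 2, was 1 with a filter at 1 FPKM (which drops Tead4), no filter, median-ratio scaling, quantile normalization or the replicate block, 0 without CKOs 1, 3 and 6 (with or without scaling) and 1 to 3 without single mice. The number lower, 0, was 1 with sample weights (Tead1, while Mef2c joined the higher genes) and 0 to 1 without single mice. At the unadjusted threshold, 5 became 3 with the filter at 1 FPKM, scaling or quantile normalization, 2 without CKOs 1, 3 and 6 (with or without scaling) and 4 to 5 without single mice. The number lower, 0, became 1 with scaling, quantile normalization, the block or sample weights, and was 0 to 1 without single mice. Signs turned for Tead3 under quantile normalization (-0.0349) and without CKOs 1, 3 and 6 (-0.13, and -0.24 with scaling), for Mef2d without them (0.00157) and for the Mef2a share without them (0.391 points). The Tead1 and Tead4 shares kept their direction under each alternative run. Their groups did not overlap with all mice. Runs that left mice out or paired them by number therefore could not make either share fail, and do not test it. With 0.1 FPKM added the Tead1 share differed by -6.87 points and the Tead4 share by 4.40 points. The exact permutation p was 0.00217 for both, and also for both as log2 ratios. Without CKOs 1, 3 and 6 the Mef2d share was -1.04 points and the Tead2 share 2.68 points (exact permutation p = 0.0357). Without single mice the share differences ran from 2.85 to 4.10 points for Mef2c, -2.66 to -1.80 for Mef2d, -1.82 to -0.775 for Mef2a (lowest in size without CKO 3), 0.70 to 1.75 for Tead2 (without CKO 5 and control 1), 0.554 to 1.47 for Tead3 (without CKO 3 and control 1) and -5.54 to -3.28 for Vgll2. The cause of these moves was not tested, apart from the filter, which removes the gene, and the smaller number of mice.

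Mice with the same number deviated together little (mean correlation 0.0404, against -0.00879 for other pairs, with 2 of 6 pairs over 0.1 and 3 of 6 CKOs closest to their own number), so the numbers were not taken as pairs. The replicate block gave 1 gene higher at the adjusted threshold, and the sign-flip over numbered pairs gave an exact permutation p of 0.0312 for the Vgll2 share difference of -4.04 points. Low FPKM limit Tead2, Tead3, Tead4 and Vgll3, and the number of reads is unknown. No source used here assigns the mice to litters.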
